A study of Danio rerio with 24 samples.

Results

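This report covers the collagens and laminins of the zebrafish (Danio rerio) caudal fin during regeneration. The array's probe sets were taken where their single annotated symbol named a collagen or laminin chain. The genes col2a1a, col9a1b, col9a2, col10a1a and col10a1b, whose products belong to cartilage, notochord and bone matrix, were left out with their 5 probe sets. That left 28 probe sets for 23 genes, of 15502 probe sets tested and 8793 annotated genes. Collagens made up 20 of the probe sets and laminins 8. No chain of type IV collagen, the main network of basement membranes, was among them, and col8a1a was the 1 network-forming collagen.

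Fins of AB strain fish were profiled on 24 Affymetrix arrays, in 8 groups of 3 replicates. Adult fins came from males and were unamputated or at 1, 3 or 5 days post amputation (dpa), with 10 fish pooled per replicate. Adult regenerates were cut off within the ray segments just anterior to the original plane, so they held some stump tissue. Adults with a regenerating fin had been injected with vehicle liposomes of phosphatidylcholine, and no injection was stated for unamputated adults. Larvae gave unamputated fins, taken 2 days post fertilization, and fins cut at that same age and collected at 1, 2 or 3 dpa, with 150 fins pooled per replicate. Larvae collected at 2 and 3 dpa had been kept in the vehicle DMSO, and no vehicle was stated for the unamputated and 1 dpa larvae. Adult arrays started from 2.5 µg of RNA in a One-Cycle labelling kit and larval arrays from 100 ng in a Two-Cycle kit. Age, kit, RNA input and vehicle therefore cannot be told apart between the ages. Within an age, the stated vehicle cannot be told apart from regeneration in adults, or from the step to 2 and 3 dpa in larvae. The sample numbers form 2 separate runs. The first run holds unamputated fins of both ages and larval 1 dpa, and the second holds all other groups. This split falls at the same steps as the stated vehicle and cannot be told apart from them either. The labels do not say what it marks. Larvae grew older between collection days, and no unamputated larvae of matching age were measured. The labels name pools, not clutches, so p-values measure the spread between these pools.

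Collagens are triple helices of alpha chains that are modified in the endoplasmic reticulum, secreted, trimmed and cross-linked. Fibrillar types (I, V and XI) build the cables of dermis and bone, fibril-associated types sit on their surface, and others form networks, beaded filaments or anchors through the cell membrane. Laminins are trimers of an alpha, a beta and a gamma chain and form the sheet on which epithelia rest, including the wound epidermis that covers an amputated fin. A regrowing fin lays down new dermal and bony matrix behind the blastema, the mass of dividing cells at its tip.

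The deposited values are ratios on a linear scale, in which every probe set is divided by a reference of its own. The height of a ratio therefore gives no level, and ratios of different genes cannot be compared. Changes between groups are given on the log2 scale with the standard error of a limma model, and a change was called where it reached 2-fold and its p, adjusted over all probe sets (Benjamini-Hochberg), was under 0.05. Where a gene had 2 probe sets, they are called first and second by their order from top to bottom in the map of changes. In what follows, rose and fell are used of called probe sets only. Because whole fins were measured, fewer cells of a type and less RNA per cell cannot be told apart. For the same reason of scale, the presence of a tissue could not be read from its markers.

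Over all probe sets, the correlation between replicates lay between 0.793 and 0.939 except at larval 3 dpa, where r ran from 0.629 to 0.808. There replicate 3 stood apart, with a mean r of 0.634 to the other two, which had 0.723 and 0.718. The median log2 change of all probe sets from unamputated to regenerating adult fin was −0.18 to −0.17. The 9 hybridisation controls, RNAs added in fixed amounts before hybridisation, lay 1.46 lower on the log2 scale in regenerating than in unamputated adult fins. Neither shift was corrected, and adult counts of collagens, laminins and the genes that process or partner them are also given with arrays centred on their median where that changed them.

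In adult fin most called collagen and laminin probe sets rose from 3 dpa on. At 1 dpa, 1 of the 28 probe sets rose and 4 fell, against 8.68% of all probe sets called higher and 7.4% called lower, and 8 were called without adult 1 dpa replicate b. At 3 dpa, 11 rose and 2 fell, which is 39.3% and 7.14% of the 28, against 8.1% and 6.19% of all probe sets. At 5 dpa, 16 rose and 1 fell, which is 57.1% and 3.57%, against 7.01% and 4.46%. The median changes of the 28 on the 3 adult days were 0.05, 0.76 and 1.21, beside −0.17, −0.18 and −0.17 over all probe sets. With arrays centred on their median, 2 rose and 3 fell at 1 dpa, against 10.8% and 5.28% of all probe sets so treated, and at 5 dpa 17 rose and the fall was no longer called, against 8.52% and 2.83%. The counts at 3 dpa were the same after centring, against 9.82% and 4.17%.

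In larval fin more of the 28 fell than rose after the first day. At 1 dpa, 3 of the 28 probe sets rose and 2 fell, against 2.43% of all probe sets called higher and 1.58% called lower. At 2 dpa, 4 rose and 8 fell (14.3% and 28.6% of the 28), against 6.23% and 6.32% of all probe sets. At 3 dpa, 3 rose and 7 fell (10.7% and 25%), against 5.08% and 5.51%. Median changes were −0.14, −0.20 and −0.27 on the 3 larval days, beside medians of −0.03, −0.02 and 0.00 over all probe sets. Of the 28 probe sets, 22 were called in at least 1 of these 6 comparisons and 6 in none.

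**Figure D1:**
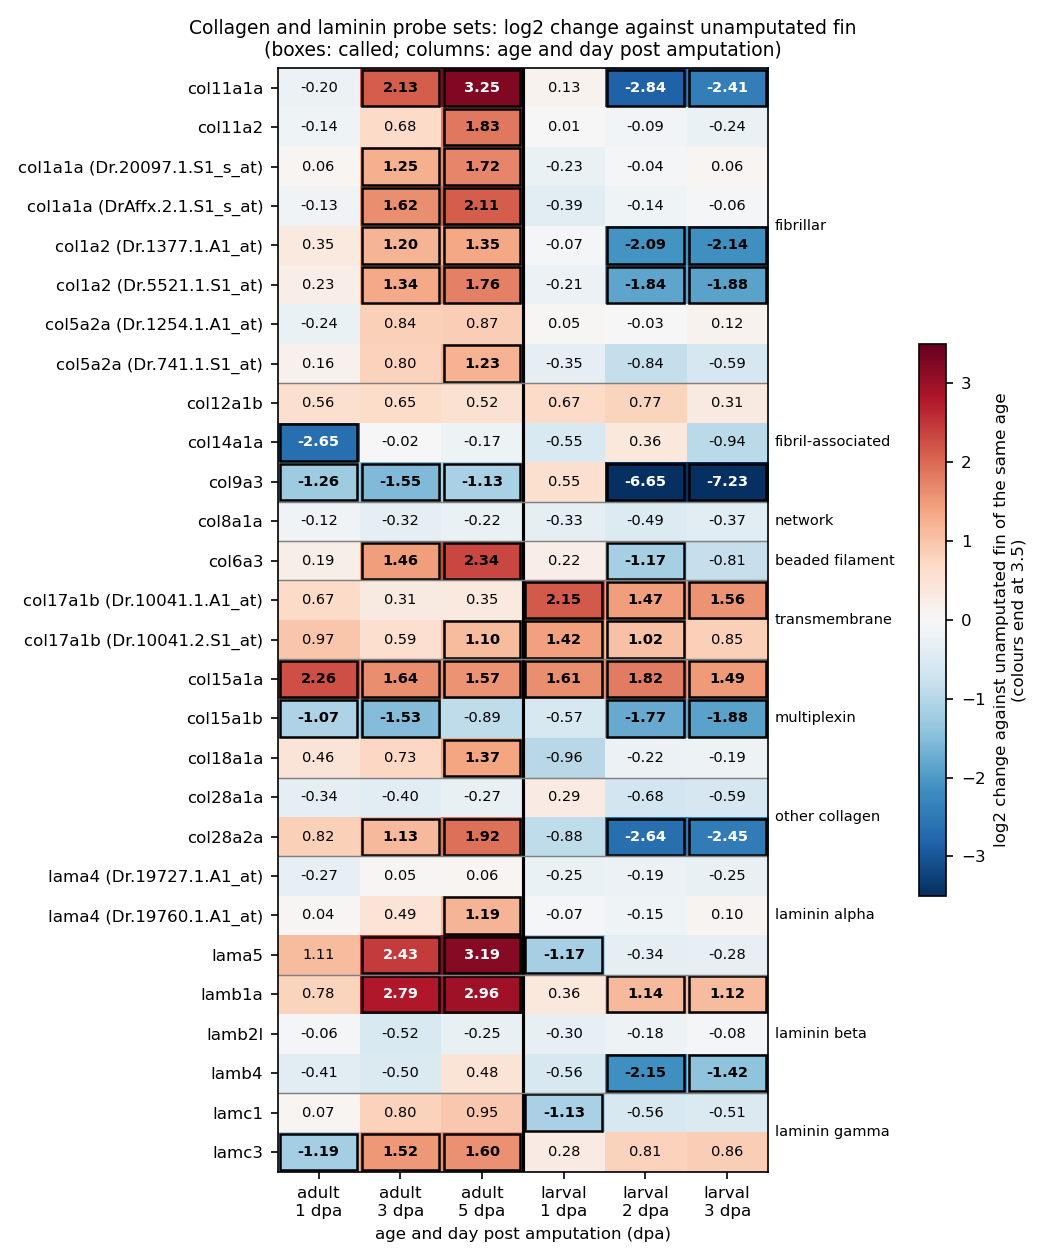
Log2 change of each of the 28 collagen and laminin probe sets (rows, grouped by class of chain) against unamputated fin of the same age, for adult 1, 3 and 5 dpa and larval 1, 2 and 3 dpa (columns). Red is higher and blue lower than unamputated fin, numbers are the log2 changes, and boxes mark called changes, which are mostly red for adult 3 and 5 dpa. At larval 2 and 3 dpa 3 of the 8 fibrillar probe sets are boxed, all in blue.

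The fibrillar collagens held 8 probe sets for 5 genes. In adult fin 5 of the 8 rose at 3 dpa and 7 at 5 dpa, against 8.1% and 7.01% of all probe sets called higher. The medians of the 8 were 1.22 and 1.74. At 1 dpa none of the 8 was called by limma, against 8.68% of all probe sets called higher and 7.4% called lower. On that day 1 of the 8 had an unadjusted p under 0.05, a share not counted over all probe sets. At larval 2 and 3 dpa 6.32% and 5.51% of all probe sets were called lower. Of the 8, 3 fell on each of these days. Those 3 were col11a1a and both probe sets of col1a2.

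The gene col11a1a encodes a chain of type XI collagen, a minor fibril component that sets the thickness of cartilage fibrils. Its ratios were 0.159, 0.182 and 0.174 in unamputated adult fin, 0.0893, 0.186 and 0.201 at 1 dpa, 0.914, 0.463 and 1 at 3 dpa, and 1.62, 1.88 and 1.41 at 5 dpa. All 3 dpa and 5 dpa arrays lay above the unamputated ones, whereas the 1 dpa arrays overlapped them. The change was −0.20 ± 0.34 at 1 dpa, 2.13 ± 0.34 at 3 dpa (adjusted p = 0.00131, limma) and 3.25 ± 0.34 at 5 dpa (adjusted p = 0.000287, limma), a 9.48-fold rise. In larval fin the ratios were 2.95, 3.7 and 3.42 before amputation, 3.32, 3.73 and 3.97 at 1 dpa, 0.429, 0.469 and 0.508 at 2 dpa, and 0.448, 0.536 and 1.03 at 3 dpa. Every array of larval 2 and 3 dpa lay below every array of the earlier larval groups. Larval changes were 0.13 ± 0.25, −2.84 ± 0.25 and −2.41 ± 0.25, and the last was −2.77 without the 3 dpa replicate that stood apart, which held the highest of the 3 values. A second type XI chain gene, col11a2, was called in adult fin at 5 dpa only, at 1.83 ± 0.50, and its larval changes ran from −0.24 to 0.01. Its 5 dpa ratios of 5.03, 1.45 and 3.06 were spread widely. Without 5 dpa replicate a, 5 dpa replicate c or unamputated replicate 1 the change was 1.41, 1.77 or 1.71 and no longer called (adjusted p = 0.067, 0.0574 and 0.0571, limma).

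Type I collagen, the main fibril of skin and bone, is built from chains of both col1a1a and col1a2. In adult fin the 2 genes rose together. The first probe set of col1a1a had ratios of 0.208, 0.238 and 0.178 in unamputated fin, 0.153, 0.254 and 0.258 at 1 dpa, 0.553, 0.397 and 0.542 at 3 dpa, and 0.673, 0.631 and 0.741 at 5 dpa. Both probe sets of col1a1a rose at 3 dpa (1.25 ± 0.22 and 1.62 ± 0.27) and at 5 dpa (1.72 ± 0.22 and 2.11 ± 0.27). At 3 dpa the first was at 0.95 with a pseudocount of 0.1 and 0.78 with quantile normalization, both under 2-fold. The second probe set of col1a2 had ratios of 0.701, 1 and 0.577 in unamputated fin, 0.627, 0.929 and 1.12 at 1 dpa, 2.13, 1.47 and 2.08 at 3 dpa, and 2.38, 2.55 and 2.61 at 5 dpa. Its changes of 1.34 ± 0.25 and 1.76 ± 0.25 at 3 and 5 dpa were called, as were those of the other col1a2 probe set (1.2 ± 0.15 and 1.35 ± 0.15). For all 4 probe sets the arrays of 3 and 5 dpa lay above those of unamputated fin.

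In larval fin the 2 genes of type I collagen went apart. Larval ratios of the first col1a1a probe set were 1.17, 1.13 and 1.16 before amputation, 1, 0.936 and 1.02 at 1 dpa, 1.07, 1.13 and 1.17 at 2 dpa, and 1.21, 1.17 and 1.23 at 3 dpa. Its changes of −0.23 ± 0.08, −0.04 ± 0.08 and 0.06 ± 0.08, and those of the second probe set (−0.39 ± 0.10, −0.14 ± 0.10 and −0.06 ± 0.10), were not called. The second probe set of col1a2 had 1.27, 1.29 and 1.25 before amputation, 1.09, 1.18 and 1.02 at 1 dpa, 0.342, 0.388 and 0.338 at 2 dpa, and 0.342, 0.396 and 0.307 at 3 dpa. It fell to 0.28 times its unamputated value at 2 dpa (−1.84 ± 0.11) and 0.273 times at 3 dpa (−1.88 ± 0.11), and the other col1a2 probe set fell by 2.09 ± 0.25 and 2.14 ± 0.25 on the log2 scale. Within an array, the log2 of col1a2 minus that of col1a1a, averaging the 2 probe sets of each, ran from −0.206 to 0.0188 in unamputated larval fin and from −0.0574 to 0.341 at 1 dpa. It lay between −2.01 and −1.81 at 2 dpa and between −2.31 and −1.81 at 3 dpa, below all the earlier larval arrays. In adults it ran from 2.15 to 2.23 in unamputated fin, 2.41 to 2.69 at 1 dpa, 1.94 to 2.16 at 3 dpa and 1.74 to 1.94 at 5 dpa. Both col1a1a probe sets carry the suffix that Affymetrix gives to probes shared by several transcripts, so transcripts of related genes may add to their signal, and the part of this in the larval difference was not tested.

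**Figure D2:**
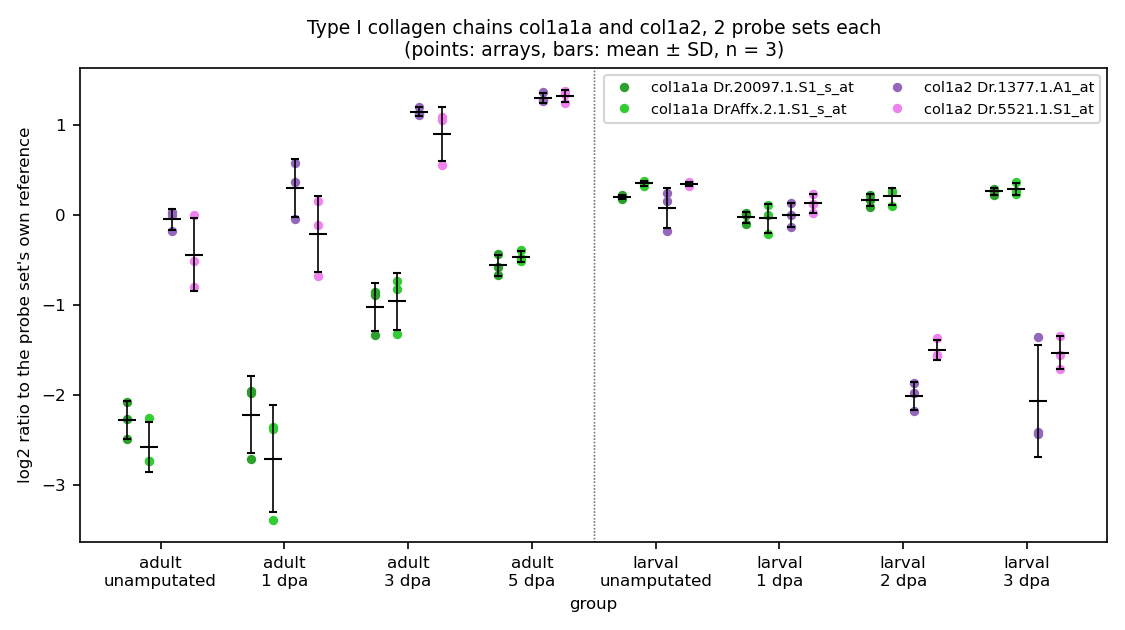
Log2 ratio of the 2 probe sets of col1a1a (greens) and the 2 of col1a2 (purples) on each array, by group, with the mean and SD of 3 arrays as bars. Each probe set has its own reference, so only changes between groups can be read: in adult fin all 4 go up at 3 and 5 dpa, and in larval fin only the col1a2 points drop at 2 and 3 dpa.

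The type V chain gene col5a2a, whose product limits the width of type I fibrils, changed less. Its second probe set rose in adult fin at 5 dpa (1.23 ± 0.26) and had 0.80 ± 0.26 at 3 dpa. The larval changes of that probe set, −0.35 ± 0.10, −0.84 ± 0.10 and −0.59 ± 0.10, had adjusted p values under 0.05 but were under 2-fold. The first probe set was at 0.84 ± 0.26 and 0.87 ± 0.26 in adults on these days, also under 2-fold, and between −0.03 and 0.12 in larvae.

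The fibril-associated collagens had no common course. The gene col14a1a, whose product links fibrils in dermis and tendon, fell in adult fin at 1 dpa and then stood near its starting value. Its adult ratios were 1.46, 2.07 and 1.47 in unamputated fin, 0.213, 0.272 and 0.307 at 1 dpa, 2.04, 0.975 and 2.16 at 3 dpa, and 1.42, 1.18 and 1.84 at 5 dpa. The 1 dpa arrays lay far below all other adult arrays, at −2.65 ± 0.30 (adjusted p = 0.000284, limma), a 6.29-fold fall, while the changes at 3 and 5 dpa were −0.02 ± 0.30 and −0.17 ± 0.30. Larval ratios were 1.34, 1.24 and 1 before amputation, 0.816, 0.788 and 0.83 at 1 dpa, 1.46, 1.49 and 1.6 at 2 dpa, and 0.883, 0.715 and 0.374 at 3 dpa. Larval changes of −0.55 ± 0.25, 0.36 ± 0.25 and −0.94 ± 0.25 were not called. Of the 28 probe sets, col14a1a had the largest adult fall at 1 dpa.

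The gene col9a3 encodes a type IX chain, which coats type II fibrils in cartilage and notochord. In larvae its ratios were 87.7, 143 and 137 before amputation, 155, 173 and 202 at 1 dpa, 0.831, 1 and 2.05 at 2 dpa, and 0.945, 0.605 and 0.894 at 3 dpa. It thus fell 100.2-fold at 2 dpa (−6.65 ± 0.32) and 149.7-fold at 3 dpa (−7.23 ± 0.32, adjusted p = 3.11e-07, limma), the largest change of the 28 probe sets. In adults the ratios were 1.18, 1.53 and 1.6 in unamputated fin, 0.62, 0.568 and 0.601 at 1 dpa, 0.58, 0.445 and 0.447 at 3 dpa, and 0.79, 0.665 and 0.522 at 5 dpa. It was the 1 probe set that fell on all 3 adult days, by 1.26 ± 0.18, 1.55 ± 0.18 and 1.13 ± 0.18 on the log2 scale, and the 5 dpa change was under 2-fold with arrays centred on their median (−0.99) or without 5 dpa replicate c (−0.97). With quantile normalization the changes at 1 and 5 dpa were −0.97 and −0.96, also under 2-fold. The other fibril-associated chain, col12a1b, found in dense connective tissue, had changes of 0.52 to 0.65 in adults and 0.31 to 0.77 in larvae, none called.

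The short-chain network collagen gene col8a1a, known in zebrafish for a role in notochord development, was not called on any day. Its changes ran from −0.32 to −0.12 in adults and from −0.49 to −0.33 in larvae. The beaded-filament chain gene col6a3 codes for part of type VI collagen, a mesh around muscle fibres and connective tissue cells. Its ratios in adult fin were 1.1, 1.07 and 0.806 before amputation, 0.981, 0.918 and 1.56 at 1 dpa, 4.12, 1.5 and 3.15 at 3 dpa, and 4.78, 5 and 5.09 at 5 dpa. It rose by 1.46 ± 0.33 at 3 dpa and 2.34 ± 0.33 at 5 dpa (adjusted p = 0.00118, limma), and the 5 dpa arrays lay closest together. In larvae the ratios were 0.981, 0.99 and 1 before amputation, 1.01, 1.34 and 1.13 at 1 dpa, 0.366, 0.477 and 0.49 at 2 dpa, and 0.468, 0.418 and 0.921 at 3 dpa. The larval fall was called at 2 dpa (−1.17 ± 0.25) and was −0.81 ± 0.25 at 3 dpa, where the value of 0.921 belonged to replicate 3.

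The transmembrane collagen gene col17a1b, whose product anchors basal epidermal cells in hemidesmosomes, rose in larvae from the first day. Its first probe set had larval ratios of 0.185, 0.209 and 0.276 before amputation, 1.12, 0.915 and 0.904 at 1 dpa, 0.611, 0.544 and 0.681 at 2 dpa, and 0.53, 0.515 and 1 at 3 dpa. No array of the 3 regenerating larval groups overlapped with unamputated fin, and the changes were 2.15 ± 0.24, 1.47 ± 0.24 and 1.56 ± 0.24, all called. The second probe set had 0.382, 0.321 and 0.277 before amputation, 1.41, 0.626 and 0.746 at 1 dpa, 0.61, 0.66 and 0.702 at 2 dpa, and 0.542, 0.534 and 0.685 at 3 dpa. It rose at 1 dpa (1.42 ± 0.25) and 2 dpa (1.02 ± 0.25), and was at 0.85 ± 0.25 at 3 dpa. Its 2 dpa change was under 2-fold without 2 dpa replicate 3 (0.97) or unamputated replicate 3 (0.91), with a pseudocount (0.83) and with quantile normalization (0.98). In adults the first probe set had 8.42, 7.62 and 7.34 before amputation, 11.9, 13.1 and 12.3 at 1 dpa, 9.36, 9.01 and 10.6 at 3 dpa, and 10.8, 9.29 and 9.71 at 5 dpa. Its changes of 0.67 ± 0.11, 0.31 ± 0.11 and 0.35 ± 0.11 were under 2-fold. The second had 19.1, 17.2 and 9.01 before amputation, 16.9, 35.3 and 37.3 at 1 dpa, 28.6, 20.9 and 17.1 at 3 dpa, and 32.1, 25.5 and 35.5 at 5 dpa. For that probe set 1.1 ± 0.36 at 5 dpa was called (adjusted p = 0.0394, limma), and leaving out any 1 of 5 dpa replicates a, b and c or unamputated replicates 2 and 3 ended the call, with changes of 0.76 to 1.23 (adjusted p between 0.0545 and 0.121, limma).

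The multiplexins are collagens of basement membranes whose end fragments can be cut off. The paired genes col15a1a and col15a1b had changes of opposite sign in all 6 comparisons with unamputated fin. Adult ratios of col15a1a were 0.768, 0.896 and 0.885 in unamputated fin, 2.68, 4.43 and 5.61 at 1 dpa, 4.38, 1.37 and 3.06 at 3 dpa, and 3.16, 2.19 and 2.29 at 5 dpa. Larval ratios of col15a1a were 0.306, 0.298 and 0.37 before amputation, 0.911, 1.09 and 0.974 at 1 dpa, 1.33, 0.938 and 1.18 at 2 dpa, and 1.01, 1 and 0.736 at 3 dpa. It rose in all 6 comparisons with unamputated fin, the 1 probe set to do so, with no overlap between regenerating and unamputated arrays of either age. The changes were 2.26 ± 0.39, 1.64 ± 0.39 and 1.57 ± 0.39 at adult 1, 3 and 5 dpa, and 1.61 ± 0.17, 1.82 ± 0.17 and 1.49 ± 0.17 at larval 1, 2 and 3 dpa.

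Adult ratios of col15a1b were 1.19, 1.88 and 2.16 in unamputated fin, 1.35, 0.477 and 0.811 at 1 dpa, 0.544, 0.699 and 0.533 at 3 dpa, and 1.33, 1 and 0.574 at 5 dpa. Larval ratios were 1.56, 2.46 and 2.55 before amputation, 1.17, 1.57 and 1.63 at 1 dpa, 0.591, 0.616 and 0.681 at 2 dpa, and 0.565, 0.571 and 0.605 at 3 dpa. It fell at larval 2 dpa (−1.77 ± 0.19) and 3 dpa (−1.88 ± 0.19) and at adult 3 dpa (−1.53 ± 0.40). At adult 1 dpa the groups overlapped, and the call at −1.07 ± 0.40 (adjusted p = 0.0498, limma) became −0.92 with an adjusted p of 0.0886 (limma) when arrays were centred. With a pseudocount it was −0.98 and with quantile normalization −0.81, under 2-fold. It was also lost without 1 dpa replicate d (−0.70) or e (−1.08) and without unamputated replicate 2 (−0.996) or 3 (−0.90). The third multiplexin gene, col18a1a, encodes the precursor of endostatin. Its adult ratios were 0.373, 0.404 and 0.319 in unamputated fin and 0.942, 0.986 and 0.889 at 5 dpa, a rise of 1.37 ± 0.16 with the groups well apart. In larvae it was at −0.96 ± 0.16 at 1 dpa, just under 2-fold, and at −0.22 ± 0.16 and −0.19 ± 0.16 later.

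Type XXVIII collagen, described in mouse around peripheral nerves, was measured through col28a1a and col28a2a. The adult ratios of col28a2a were 0.109, 0.143 and 0.0602 in unamputated fin, 0.17, 0.165 and 0.184 at 1 dpa, 0.263, 0.171 and 0.217 at 3 dpa, and 0.503, 0.438 and 0.23 at 5 dpa. The larval ratios were 7.99, 9.85 and 11.2 before amputation, 3.87, 6.03 and 6.09 at 1 dpa, 1.54, 1.74 and 1.36 at 2 dpa, and 0.895, 1 and 6.04 at 3 dpa. It rose in adult fin at 3 dpa (1.13 ± 0.35) and 5 dpa (1.92 ± 0.35) and fell in larval fin at 2 dpa (−2.64 ± 0.57) and 3 dpa (−2.45 ± 0.57). Replicate 3 of larval 3 dpa lay among the 1 dpa values, and without it the 3 dpa change was −3.34. The adult rise at 3 dpa was lost without 3 dpa replicate a (0.98) or c (1.12) or unamputated replicate 3 (0.78). With quantile normalization the changes at larval 2 and 3 dpa and adult 3 dpa were −2.57, −1.55 and 0.39 and were no longer called (adjusted p = 0.154, 0.421 and 0.268, limma). The adult 3 dpa change was 0.65 with a pseudocount, and the larval 3 dpa change had an adjusted p of 0.0502 (limma) when its 2 groups were fitted alone. The gene col28a1a had changes of −0.40 to −0.27 in adults and −0.68 to 0.29 in larvae, none called.

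Among the laminin alpha chains, lama5 stood out in adults. Its product is the main alpha chain of epidermal basement membrane, and in zebrafish it is needed for the fin fold to keep its shape. Its adult ratios were 0.154, 0.0999 and 0.055 in unamputated fin, 0.112, 0.259 and 0.296 at 1 dpa, 0.799, 0.267 and 0.627 at 3 dpa, and 0.794, 0.748 and 1.08 at 5 dpa. The 3 and 5 dpa arrays all lay above the unamputated ones, with rises of 2.43 ± 0.51 and 3.19 ± 0.51 (adjusted p = 0.00194, limma). The rise at 5 dpa was 9.1-fold. Larval ratios were 1.77, 1.78 and 1.76 before amputation, 1, 0.652 and 0.751 at 1 dpa, 1.29, 1.56 and 1.37 at 2 dpa, and 1.42, 1.68 and 1.29 at 3 dpa. It fell at larval 1 dpa (−1.17 ± 0.16) and was at −0.34 ± 0.16 and −0.28 ± 0.16 on the later days. For lama4, a chain of vessel basement membranes, the second probe set rose in adult fin at 5 dpa (1.19 ± 0.31, and 1.01 with an adjusted p of 0.0566 by limma without replicate a), and the first was at 0.06 ± 0.21. Their larval changes ran from −0.25 to 0.10.

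The laminin beta chain gene lamb1a, widely expressed in basement membranes, rose at both ages. In adults its ratios were 0.206, 0.23 and 0.177 before amputation, 0.213, 0.496 and 0.401 at 1 dpa, 1.64, 1 and 1.7 at 3 dpa, and 1.38, 1.59 and 1.82 at 5 dpa. In larvae they were 0.809, 0.813 and 0.841 before amputation, 1.12, 1.09 and 0.965 at 1 dpa, 1.77, 1.75 and 1.91 at 2 dpa, and 1.61, 1.69 and 2.06 at 3 dpa. The larval groups of all 3 days lay above the unamputated one, and the changes were 0.36 ± 0.11, 1.14 ± 0.11 and 1.12 ± 0.11, the last 2 called. Adult rises were 2.79 ± 0.30 at 3 dpa and 2.96 ± 0.30 at 5 dpa (adjusted p = 0.000262, limma), beside 0.78 ± 0.30 at 1 dpa. The related gene lamb4 fell in larvae at 2 dpa (−2.15 ± 0.46) and 3 dpa (−1.42 ± 0.46), where its ratios of 0.965, 0.648 and 3.02 came close to the 3.03, 3.46 and 3.43 of unamputated fin in replicate 3 alone. Without that replicate the 3 dpa change was −2.06, and without replicate 2 it was −0.95. The call was lost without 3 dpa replicate 1 or 2 or any 1 of the unamputated replicates, with adjusted p between 0.0771 and 0.138 (limma), and with quantile normalization (adjusted p = 0.179, limma). In adults lamb4 was between −0.50 and 0.48, and the other beta chain gene, lamb2l, had changes of −0.52 to −0.06 in adults and −0.30 to −0.08 in larvae.

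The gamma chain genes lamc1 and lamc3 differed in adults. The gene lamc1 encodes the common gamma chain of most laminins. Its ratios were 2.33, 1.41 and 0.987 in unamputated adult fin, 0.947, 2.75 and 1.44 at 1 dpa, 1.73, 3.62 and 2.74 at 3 dpa, and 1.51, 2.98 and 5.24 at 5 dpa. These groups overlapped, and the changes of 0.07 ± 0.53, 0.80 ± 0.53 and 0.95 ± 0.53 carried the largest standard error of the 28 adult values. In larvae the ratios were 1.3, 1.34 and 1.28 before amputation, 0.597, 0.752 and 0.478 at 1 dpa, 0.932, 0.886 and 0.849 at 2 dpa, and 1, 0.925 and 0.828 at 3 dpa. All regenerating larval arrays lay below the unamputated ones, with a fall of 1.13 ± 0.15 on the log2 scale at 1 dpa and changes of −0.56 ± 0.15 and −0.51 ± 0.15 later. Without larval 1 dpa replicate 3 the first of these was −0.96.

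For lamc3, the adult ratios were 0.209, 0.24 and 0.183 before amputation, 0.11, 0.087 and 0.0808 at 1 dpa, 0.545, 0.447 and 0.892 at 3 dpa, and 0.756, 0.477 and 0.712 at 5 dpa. The gene thus fell at 1 dpa (−1.19 ± 0.26) and rose at 3 dpa (1.52 ± 0.26) and 5 dpa (1.60 ± 0.26), with no overlap with unamputated fin on any day. The fall at 1 dpa was −0.69 with a pseudocount of 0.1 and −0.78 with quantile normalization, both under 2-fold. Larval ratios were 1, 0.866 and 1.2 before amputation, 1, 1.37 and 1.36 at 1 dpa, 1.79, 1.81 and 1.75 at 2 dpa, and 1.54, 1.5 and 2.68 at 3 dpa. Larval changes of 0.28 ± 0.22, 0.81 ± 0.22 and 0.86 ± 0.22 were not called.

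**Figure D3:**
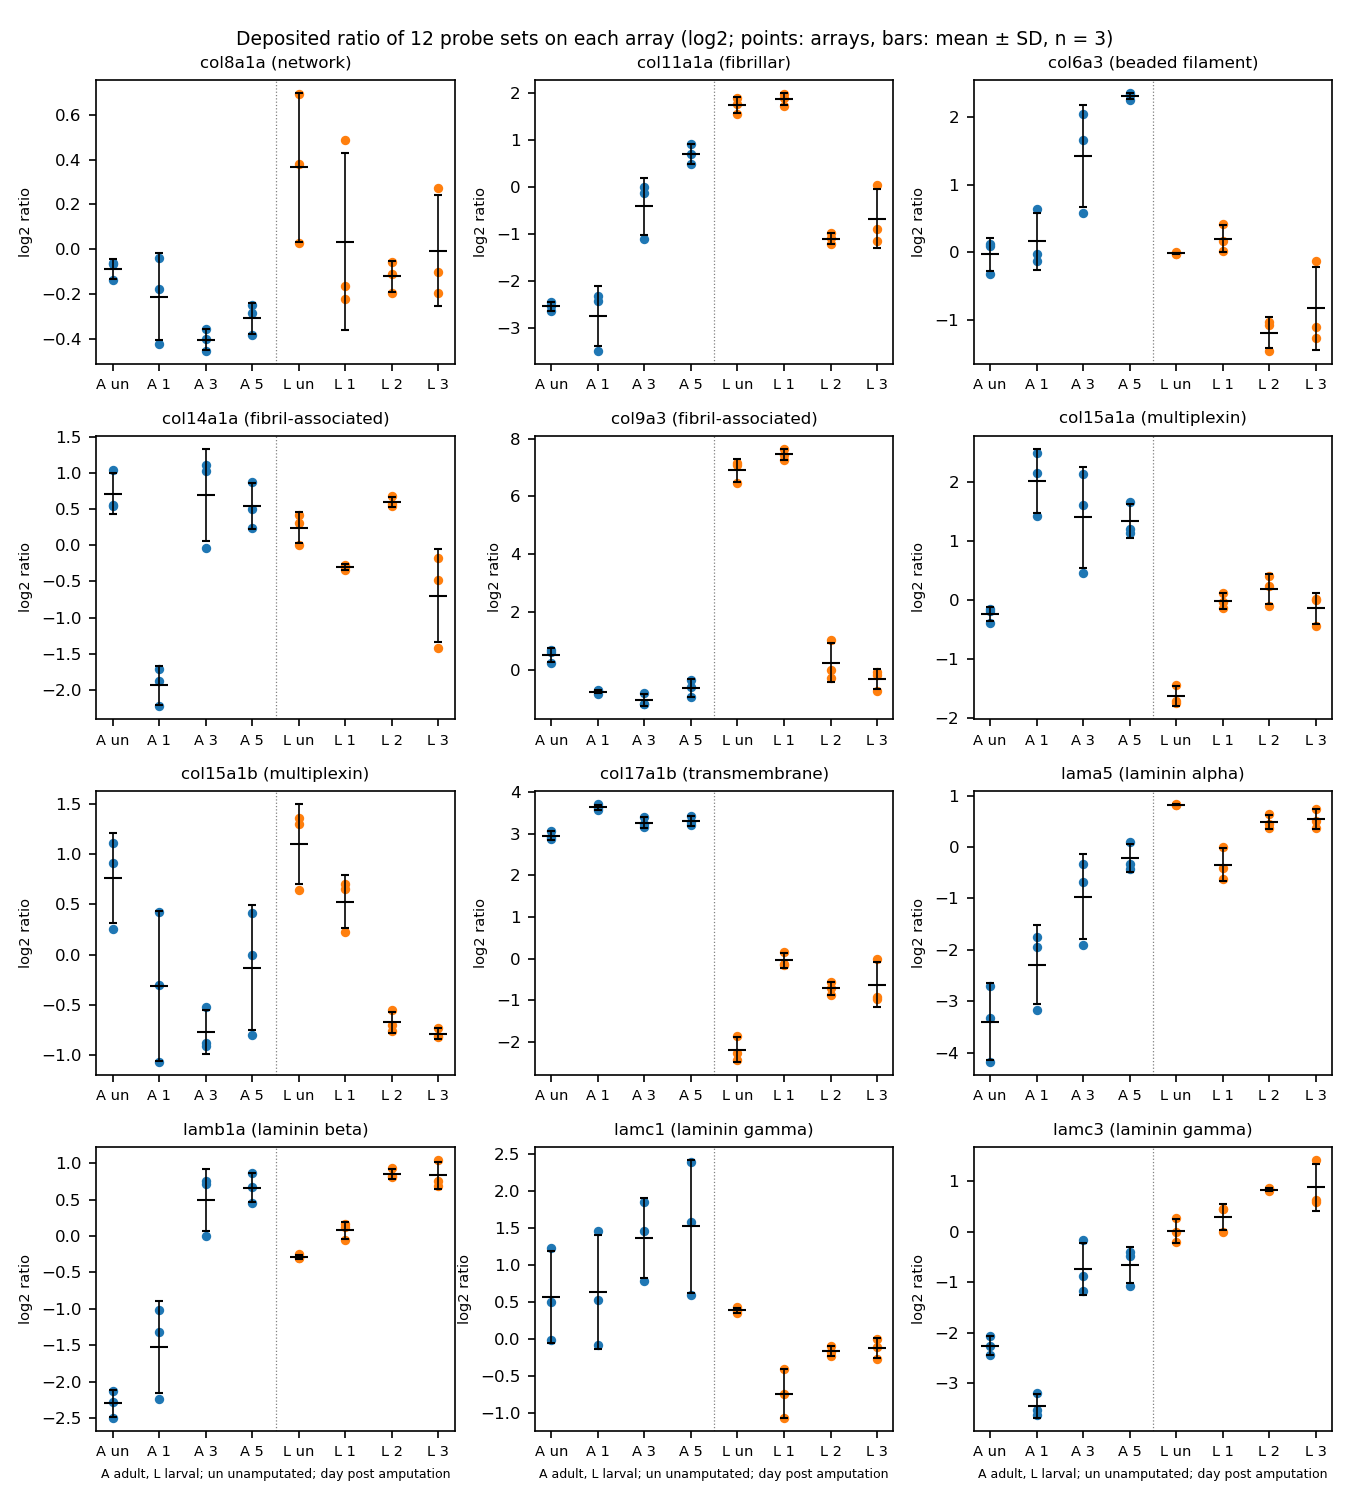
Log2 ratio of 12 probe sets of collagens and laminins on each array, by group (A adult in blue, L larval in orange, un unamputated, numbers the days post amputation), with the mean and SD of 3 arrays as bars and a scale of its own in each panel. The panels show the rise of lama5, lamb1a and col6a3 at adult 3 and 5 dpa, the dip of col14a1a and lamc3 at adult 1 dpa, the drop of col9a3 and col11a1a at larval 2 dpa, and the rise of col15a1a at both ages.

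Successive days were then compared with one another. Between adult 3 and 1 dpa, 8 of the 28 probe sets rose and the other 20 were not called, against 2.09% of all probe sets called higher and 0.393% lower. The 8 were 5 fibrillar ones (col11a1a, both of col1a1a, the second of col1a2 and the first of col5a2a) with col14a1a, lamb1a and lamc3. The largest changes were those of lamc3 (2.71 ± 0.26), col14a1a (2.64 ± 0.30) and col11a1a (2.33 ± 0.34), and the first 2 of these had fallen at 1 dpa. Fitting the 2 groups alone left 3 of the 8, and 5 of 8 were called without adult 1 dpa replicate b. The calls lost without it were those of col1a1a (first probe set), col1a2 and col5a2a. Replicate b had the lowest 1 dpa ratio for these probe sets of col1a1a and col1a2, and the highest for that of col5a2a. Among the calls lost without 1 array, col5a2a was at 1.01 to 1.21 without any of the 6 arrays, col1a2 at 0.88 to 1.16 without 1 dpa replicate b or d or 3 dpa replicate a or c, and the first probe set of col1a1a at 0.94 to 1.12 without 1 dpa replicate b or 3 dpa replicate a or c. With quantile normalization these 3 were at 0.85, 0.92 and 0.78, under 2-fold. Between adult 5 and 3 dpa none was called by limma, against 0.0387% and 0.0129% of all probe sets. The median change of the 28 was 0.42, beside 0.03 over all probe sets. Of the 28 changes 25 were above 0 and 8 had an unadjusted p under 0.05. How many of all probe sets did so was not counted, so these 2 numbers have no background.

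Between larval 2 and 1 dpa, 8 of the 28 fell and 20 were not called, against 5.33% of all probe sets called lower and 3.6% called higher. Those 8 were col9a3 (−7.20 ± 0.32), col11a1a (−2.97 ± 0.25), col1a2 (−2.01 ± 0.25 and −1.62 ± 0.11), col28a2a (−1.76 ± 0.57), lamb4 (−1.59 ± 0.46), col6a3 (−1.39 ± 0.25) and col15a1b (−1.20 ± 0.19). All of them had also been called lower at 2 dpa against unamputated fin, a comparison that shares the 2 dpa arrays. The calls of col28a2a and lamb4 were lost without 1 array in several cases, col28a2a at −1.85 to −1.65 (1 dpa replicate 2 or 3 or any 2 dpa replicate) and lamb4 at −1.61 to −1.37 (1 dpa replicate 1 or 2 or 2 dpa replicate 1 or 2). With quantile normalization neither was called (adjusted p = 0.365 and 0.0569, limma). Between larval 3 and 2 dpa none was called by limma, against 0.2% of all probe sets called higher and 0.0968% called lower. An unadjusted p under 0.05 was reached by 3 of the 28, a share not counted over all probe sets. The largest of these changes was in col14a1a, at −1.29 ± 0.25 (adjusted p = 0.0548, limma).

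The adult change minus the larval change was tested at the 2 days both ages shared. At 1 dpa, 2 of the 28 differences were called higher and 4 lower, against 8.92% and 9.01% of all probe sets, so the shares of the 28 (7.14% and 14.3%) lay near the background. The higher ones were lama5 (2.28 ± 0.55) and col18a1a (1.41 ± 0.23). Against unamputated fin at 1 dpa, lama5 was called in larvae only, as a fall, and col18a1a was called at neither age. The lower ones were col14a1a (−2.11 ± 0.41), col9a3 (−1.81 ± 0.38), the first probe set of col17a1b (−1.48 ± 0.28) and lamc3 (−1.47 ± 0.35). The calls of col9a3 (−0.65, adjusted p = 0.377, limma) and lamc3 (−1.20, adjusted p = 0.0583, limma) ended with quantile normalization, and lamc3 was at −0.95 with a pseudocount. At this day none of the 8 fibrillar differences was called by limma or had an unadjusted p under 0.05.

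At 3 dpa, 11 of the 28 differences were called higher and 1 lower (39.3% and 3.57%), against 11.5% and 10.6% of all probe sets. With arrays centred, 12 were called higher and 1 lower, against 13.6% and 8.19%. Fibrillar probe sets made up 6 of the 11, led by col11a1a at 4.54 ± 0.44 (adjusted p = 3.85e-07, limma) and col1a2 at 3.34 ± 0.30 and 3.21 ± 0.28. For these 3 the adult probe set had risen and the larval one had fallen. For both col1a1a probe sets (1.19 ± 0.23 and 1.68 ± 0.30) only the adult change was called, and the difference of the first was 0.89 with a pseudocount and 0.70 with quantile normalization, under 2-fold. The difference of col9a3 (5.68 ± 0.38) lay between a small adult fall and a large larval one. Also higher were col28a2a (3.58 ± 0.71), lama5 (2.72 ± 0.55), col6a3 (2.27 ± 0.43), lamb1a (1.67 ± 0.33) and the second probe set of col5a2a (1.39 ± 0.28). With quantile normalization col28a2a was at 1.94 and lamb1a at 0.56, and neither was called (adjusted p = 0.294 and 0.155, limma). The lower one was the first probe set of col17a1b, at −1.25 ± 0.28, and without larval 3 dpa replicate 3 it was −0.94 and with a pseudocount −0.92, under 2-fold. For the multiplexins col15a1a and col15a1b the differences were 0.15 ± 0.44 and 0.36 ± 0.46 and were not called.

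**Figure D4:**
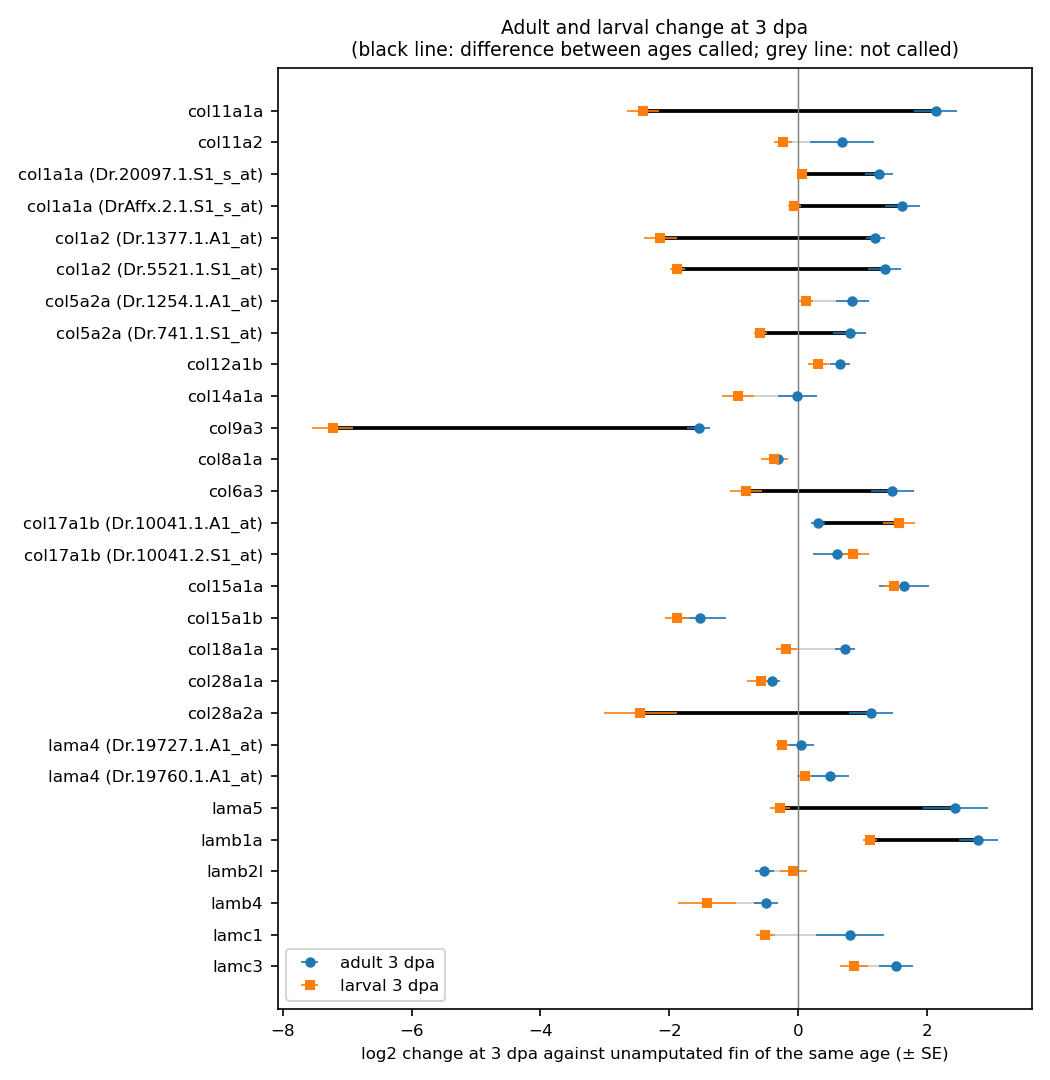
Log2 change at 3 dpa against unamputated fin of the same age for the 28 probe sets, adult as blue circles and larval as orange squares, with the standard error as bars. A black line joins the 2 where the difference between ages was called, as for col11a1a, col1a2, col9a3 and lama5, and a grey line where it was not, as for col15a1a and col15a1b.

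Genes that modify, fold, trim and cross-link collagen were followed through a list of 46 genes, of which 16 were measured. In adult fin 4 of them rose at 1 dpa, 14 rose at 3 dpa and 13 rose at 5 dpa. The others were not called. The share called higher over all probe sets was 8.68%, 8.1% and 7.01% on these days. Centring gave 5 at 1 dpa and 14 at 5 dpa, quantile normalization 8 at 3 dpa, and a pseudocount 2 at 1 dpa. The list's median change was 0.37, 1.94 and 2.03, beside −0.17, −0.18 and −0.17 over all probe sets. The prolyl isomerase genes fkbp10b and ppib, whose products help the helix to fold, rose at 1 dpa by 1.58 ± 0.19 and 1.5 ± 0.18, a day on which no fibrillar probe set was called, and the lysyl hydroxylase gene plod3 rose by 1.32 ± 0.26. At 3 dpa the largest rises were those of fkbp10b (3.59 ± 0.19), the related fkbp14 (3.15 ± 0.26) and the lysyl hydroxylase gene plod1a (2.65 ± 0.25). At 5 dpa they were loxa (3.84 ± 0.47), which encodes a lysyl oxidase that cross-links collagen, fkbp10b (3.37 ± 0.19) and plod1a (3.08 ± 0.25).

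In larval fin 1, 3 and 3 of these 16 genes were called at 1, 2 and 3 dpa. Over all probe sets 2.43%, 6.23% and 5.08% were called higher on these days and 1.58%, 6.32% and 5.51% lower. The median change of the 16 genes was −0.52, −0.27 and −0.13, beside −0.03, −0.02 and 0.00 over all probe sets. At 1 dpa 6 of the 16 had an adjusted p under 0.05 (limma) at any fold and all 6 were lower. By that rule 7.15% of all probe sets were higher and 6.38% lower. Among the 6 genes pcolcea, which codes for an enhancer of procollagen trimming, fell (−1.17 ± 0.19), and the other 15 genes of the list were not called. At 2 dpa the lysyl oxidase genes loxa and loxl2b rose by 3.12 ± 0.52 and 1.39 ± 0.31 and the prolyl hydroxylase gene p4ha1b fell (−1.19 ± 0.32). At 3 dpa the values were 3.70 ± 0.52, 1.77 ± 0.31 and −1.11 ± 0.32. The difference between ages at 3 dpa was called higher in 11 of the 16 and lower in 2, against 11.5% and 10.6% of all probe sets. Ahead among the higher were fkbp10b (4.18 ± 0.31), fkbp14 (3.52 ± 0.34) and p4ha1b (3.06 ± 0.43). The lower ones were loxa (−2.16 ± 0.74) and the protease gene tll1 (−1.06 ± 0.22).

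**Figure D5:**
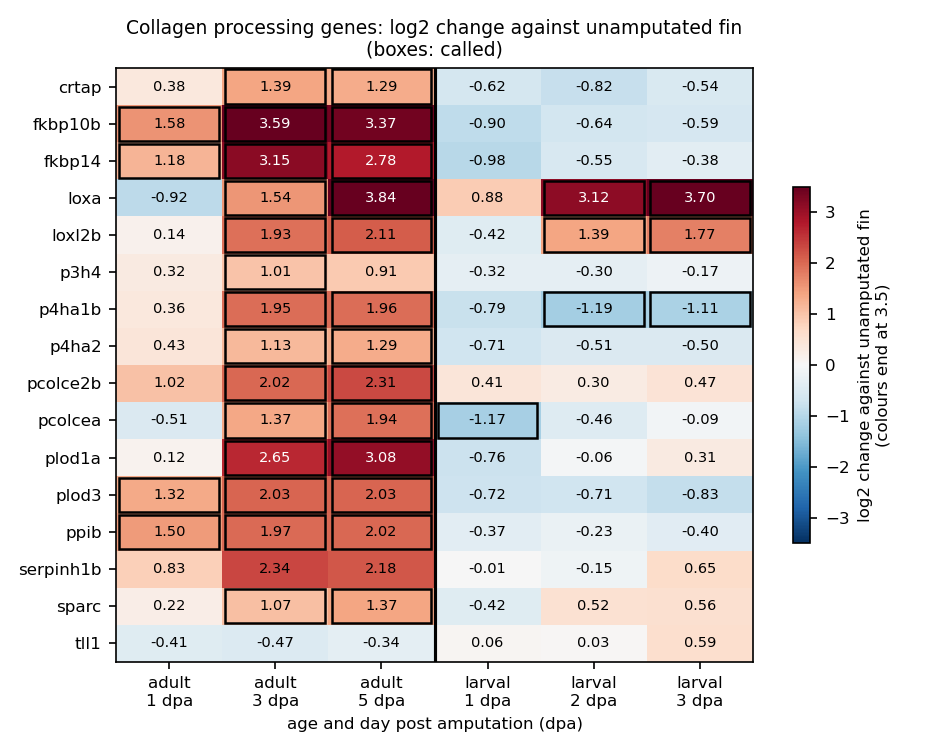
Log2 change of the 16 measured collagen processing genes (rows) against unamputated fin of the same age, for adult 1, 3 and 5 dpa and larval 1, 2 and 3 dpa (columns). Boxes mark called changes: 14 genes are boxed red at adult 3 dpa and 13 at 5 dpa, while at larval 2 and 3 dpa 3 genes are boxed, loxa and loxl2b in red and p4ha1b in blue.

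Of 48 partners of basement membranes and fibrils, 13 were measured. In adults 3 rose and 2 fell at 1 dpa, 6 rose at 3 dpa and 8 rose at 5 dpa, with medians of −0.06, 1.05 and 1.62, beside the shares of all probe sets called on these days given above. After centring, 1 fell at 1 dpa, where the median was 0.09. The fibronectin genes fn1b and fn1a, whose products form the provisional matrix of wounds, rose by 3.20 ± 0.18 and 3.14 ± 0.19 at 1 dpa, while matn4, which encodes a matrilin, an adaptor of matrix fibres, fell (−2.56 ± 0.62). At 3 dpa frem3, a basement membrane protein of the Fras family, rose by 3.55 ± 0.56, and postnb, the periostin gene of connective tissue, by 2.74 ± 0.43. At 5 dpa postnb was at 3.06 ± 0.43 and thbs4b, a thrombospondin of tendon, at 2.11 ± 0.30. The larval calls were 2 higher with 2 lower on the first day, 3 with 2 on the second and 2 with 1 on the third. The larval medians were −0.14, 0.32 and 0.02, and all probe sets had 2.43% called higher with 1.58% lower, 6.23% with 6.32% and 5.08% with 5.51%. Here fn1b rose by 2.3 ± 0.24, 1.64 ± 0.24 and 1.39 ± 0.24 on the 3 days, and fn1a fell at 2 dpa (−1.78 ± 0.14) and 3 dpa (−1.20 ± 0.14). Of 29 collagen and laminin receptors, 4 were measured, and the 1 call against unamputated fin was the hyaluronan and collagen receptor gene cd44a at larval 2 dpa (2.03 ± 0.69).

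Markers of several tissues moved on the days when the collagens changed. Over all probe sets 2.43%, 6.23% and 5.08% were called higher at larval 1, 2 and 3 dpa, and 1.58%, 6.32% and 5.51% lower. In larvae all 17 measured muscle markers of 22 fell at 2 dpa and at 3 dpa, with medians of −5.27 and −5.51, and at 1 dpa their median was 0.73 and limma called none. Their mean log2 ratio per array ran from 4.03 to 6.54 in unamputated fin, 5.36 to 7.38 at 1 dpa, −0.09 to 0.60 at 2 dpa and −0.22 to 0.05 at 3 dpa. Of 13 notochord and cartilage markers 9 were measured, among them the left-out collagens col2a1a, col9a1b and col9a2. Of these 9, 6 fell and 1 rose at 2 and at 3 dpa. Their mean ran from 3.37 to 3.61, 3.91 to 4.0, −0.32 to 0.54 and −0.32 to −0.08 in the 4 larval groups. Erythrocyte markers fell on both days in 5 of 6. The probe sets of col9a3, col11a1a, both of col1a2, col28a2a, col15a1b and lamb4 fell with these markers at 2 and 3 dpa. The part of muscle, notochord and blood tissue in those falls was not tested. Of 10 leukocyte markers 8 were measured, and 6 rose at larval 1 dpa (median 1.49), the day on which col17a1b and col15a1a were first called higher. Later 3 rose and 1 fell at 2 dpa and 2 were called higher with 1 lower at 3 dpa. Of 17 epidermal markers 15 were measured, of which 3, 5 and 4 fell and 1, 1 and 0 rose on the 3 larval days (medians −0.43, −0.31 and −0.53). Of 14 markers of fin fold mesenchyme and actinotrichia, rods at the fin margin, 8 were measured. On the 3 larval days 1, 0 and 0 of them fell and 0, 1 and 0 rose (medians −0.445, 0.05 and 0.21). Of 11 osteoblast markers 8 were measured, among them the left-out collagens col10a1a and col10a1b. Of these 8, 1 fell on each larval day and 0 rose (medians −0.03, −0.01 and 0.13). The part of the cells marked by these lists in the larval changes was not tested.

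In adult fin the mean log2 ratio of the 17 muscle markers per array lay between −0.99 and −0.56 in all 4 groups. On each day 1 of the 17 was called higher and 0 lower. Over all probe sets 8.68%, 8.1% and 7.01% were called higher at adult 1, 3 and 5 dpa, and 7.4%, 6.19% and 4.46% lower. A call of 1 of 17 or 1 of 15 markers higher thus lies near the background. Osteoblast markers were measured for 8 of 11 genes, among them the left-out collagens col10a1a and col10a1b. Of these 8, 1 rose and 3 fell at 1 dpa and 4 rose at 3 and at 5 dpa. Their mean log2 ratio was 1.58 to 2.23 in unamputated fin, 0.89 to 1.21 at 1 dpa, 2.78 to 3.09 at 3 dpa and 3.63 to 3.85 at 5 dpa. Markers of fin fold mesenchyme and actinotrichia, the rods that stiffen the fin margin, were measured for 8 of 14 genes. At 1 dpa, when col14a1a and lamc3 fell, 1 of them rose and 3 fell, and 6 rose at 3 and at 5 dpa. After centring, 1 rose and 2 fell at 1 dpa. Their mean was −4.44 to −3.92, −4.82 to −3.88, −2.28 to −1.70 and −1.42 to −1.12 in the 4 adult groups. Both lists were highest at 5 dpa, the day with the most called fibrillar probe sets, and their part in the adult rises was not tested. Of the 15 epidermal markers, 1 was called higher on each adult day, with 2 called lower at 1 dpa and 1 at 3 dpa, and these 3 lower calls ended after centring. Adult leukocyte markers were called higher in 3, 2 and 2 of 8. Of 9 endothelial markers 4 were measured, and 1 rose at adult 5 dpa and 1 fell at larval 2 and 3 dpa.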

How the data were processed

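The authors hybridised 24 arrays and, per the submitters' processing notes, used GCRMA of unstated version, and they deposited 1 ratio per probe set and array. No source used here states how the ratio was formed. Of 15617 probe sets 9600 hold the value 1 exactly once, and of those tested 12142 have 10 to 13 arrays below 1, so each seems divided by a middle value of its own. The log2 of these ratios was used without further scaling. Groups were taken from titles, although the text of the adult unamputated arrays names days after amputation and all 6 source names of larval unamputated and 1 dpa arrays say replicate 1.

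After 115 control probe sets were left out, limma (version 3.58.1, R version 4.3.3) was fitted to 15502 probe sets, with the 12 arrays of an age together, or all 24 for differences between ages, in 12 two-sided comparisons. A call needed an adjusted p under 0.05 over all probe sets and a log2 change of at least 1. The fit was tested on simulated data. The platform's annotation gave 10795 probe sets 1 symbol, 135 several and 4572 none, and all 28 Entrez IDs carried the same symbol in a RefSeq gene table. Array values are printed for the called probe sets with the 3 largest changes in each direction against unamputated fin and for further members at choice. Of the lists, genes called with the 3 largest changes are named, each read from the probe set with the highest mean. Members and lists were chosen with earlier results of these data known. Alternatives were other scalings, a pseudocount of 0.1, the 50% of probe sets with the higher mean value, no minimum fold, other variance settings, the 2 groups alone, a replicate block and leaving out single arrays. No 2 arrays correlated above 0.999. Deviations of same-numbered larval replicates correlated at −0.0351 to 0.179, while those of adult 3 and 5 dpa replicates a, b and c correlated at 0.433, 0.216 and 0.156. Differently numbered replicates were not set beside these, so the check cannot tell whether the larval numbers mark pairs. The number of arrays limits the precision.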

Additional observations from a re-analysis of the deposited data

Results flagged for a closer look

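The change after amputation differed between adult and larval fin in 18 cases among the collagen and laminin probe sets, each tested as the difference itself with limma over all 24 arrays. At 1 dpa they made up 7.14% of the 28 called higher and 14.3% called lower, against 8.92% and 9.01% of all probe sets, so the 6 of that day lay near the background. At 3 dpa the shares were 39.3% and 3.57%, against 11.5% and 10.6%. Age, labelling kit, RNA input and vehicle cannot be told apart in these differences.

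At 1 dpa the adult minus larval change was 2.28 for lama5 (adjusted p = 0.00433, limma) and 1.41 for col18a1a (0.000226). It was −2.11 for col14a1a (adjusted p = 0.000993, limma), −1.81 for col9a3 (0.00182), −1.48 for the first probe set of col17a1b (0.000737) and −1.47 for lamc3 (0.00451). The second col17a1b probe set was at −0.45 and was not called. Against unamputated fin at 1 dpa, lama5 was called in larvae only, as a fall, and col18a1a was called at neither age. With quantile normalization col9a3 was at −0.65 and lamc3 at −1.20, no longer called (adjusted p = 0.377 and 0.0583, limma), and with a pseudocount lamc3 was at −0.95, under 2-fold.

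At 3 dpa it was 5.68 for col9a3 (adjusted p = 4.17e-09, limma), 4.54 for col11a1a (3.85e-07), 3.34 and 3.21 for the 2 probe sets of col1a2 (2.19e-07 and 1.17e-07) and 3.58 for col28a2a (0.000672). Values of 2.72 for lama5 (adjusted p = 0.000781, limma), 2.27 for col6a3 (0.000518), 1.67 for lamb1a (0.000672) and 1.39 for the second probe set of col5a2a (0.000924) were also called. The first col5a2a probe set was not called. The 2 probe sets of col1a1a had 1.19 and 1.68 (adjusted p = 0.00062 and 0.000251, limma), and the first of col17a1b had −1.25 (adjusted p = 0.00171, limma). The second col17a1b probe set was at −0.25 and was not called. With quantile normalization lamb1a was at 0.56 and col28a2a at 1.94 and neither was called (adjusted p = 0.155 and 0.294, limma). The first col1a1a probe set was at 0.70 with quantile normalization and 0.89 with a pseudocount, both under 2-fold. The first col17a1b probe set was at −0.92 with a pseudocount and −0.94 without larval 3 dpa replicate 3, also under 2-fold.

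Larval 3 dpa, used in the differences at 3 dpa, was a day on which muscle, notochord and erythrocyte markers fell. Lower were 17 of 17 muscle, 6 of 9 notochord and cartilage (1 was higher) and 5 of 6 erythrocyte markers. At larval 1 dpa limma called none of the muscle or notochord and cartilage markers. On that day 2 erythrocyte markers were called higher and 1 lower. The part of those tissues was not tested.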

How the results depend on the processing

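The 96 called changes of the 28 probe sets were recomputed under the alternatives, which gave 1354 pairs of a change and a setting. Of these pairs, 1265 kept direction and call, 89 kept direction and lost the call, and 0 reversed. The total includes 96 pairs with no minimum fold, which use the same fit and could not lose a call. Quantile normalization ended 20 calls and a pseudocount of 0.1 ended 9. With no minimum fold, the number called in either direction was 10 at adult 1 dpa and 22 at adult 3 dpa. It was 9 at larval 1 dpa, 16 at larval 3 dpa and 15 between larval 2 and 1 dpa. These counts are not split by direction, so the higher and lower shares below apply to them together. Over all probe sets this rule called 17% higher and 29.2% lower at adult 1 dpa, and 15.4% and 28.3% at adult 3 dpa. In larvae these shares were 7.15% and 6.38% at 1 dpa, 14.5% and 13.7% at 3 dpa, and 12.6% and 10.8% between 2 and 1 dpa. With quantile normalization the number called was 3 at adult 1 dpa (2 higher, 1 lower), against 6.16% of all probe sets higher and 4.08% lower. It was 5 between adult 3 and 1 dpa, against 1.43% and 0.226%, and 1 between larval 3 and 2 dpa, against 0.297% and 0.284%. Between larval 2 and 1 dpa 4 were higher and 7 lower, against 6.6% and 7.15%. A pseudocount gave 3 at adult 1 dpa, against 7.4% and 5.95%, and 1 between larval 3 and 2 dpa, against 0.148% and 0.071%. Among the 50% of probe sets with the higher mean value, where 19 of the 28 were tested, 5 were called between adult 3 and 1 dpa and 1 between larval 3 and 2 dpa. All probe sets of that set had 2.92% higher with 0.722% lower, and 0.258% with 0.219%. The 2 groups alone gave 3 between adult 3 and 1 dpa, against 0.716% and 0.181% of all probe sets. Leaving out 1 array gave 4 to 8 at adult 1 dpa, 5 to 8 between adult 3 and 1 dpa, and 0 to 1 between larval 3 and 2 dpa. At adult 1 dpa the lowest came without unamputated replicate 3 and the highest without 1 dpa replicate b. Between adult 3 and 1 dpa, leaving out 1 dpa replicate b gave the lowest, and between larval 3 and 2 dpa the highest came without 3 dpa replicate 1. The cause of these moves was not tested. With the replicate block, 35 of 35 calls were kept and the counts were 5, 12 and 10 at larval 1, 2 and 3 dpa, 8 between larval 2 and 1 dpa, and 0 between adult 5 and 3 dpa. Whether the larval numbers mark pairs is not known, and for adult 5 and 3 dpa the paired count equalled the unpaired one. The adult unamputated replicates are numbered and share no label with the lettered regenerating groups. Adult 1 dpa replicates are b, d and e, of which only b is also a label at 3 and 5 dpa. No replicate block was fitted for comparisons with either of these groups, adult unamputated or adult 1 dpa. The deposited ratios carry no background or detection measure, so what is detected at all cannot be read from them.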
